A study of Mus musculus with 12 samples.

Results

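The proteins of the cytosolic ribosome were followed at the mRNA level through 79 gene rows of a table of 28977 genes. The rows were those whose symbol is Rpl or Rps with a number, with or without a final a, x or l, together with Rpsa and the stalk genes Rplp0, Rplp1 and Rplp2, while Rps27a and symbols ending in -ps and a number were left out. They were 46 genes of the large subunit, 30 of the small subunit and 3 of the stalk. GENCODE M21 annotates 77 of them as protein-coding and 2, Rpl6l and Rpl32l, as processed pseudogenes.

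The cells were J774A.1, an established mouse line with macrophage features. 4 groups of 3 mRNA libraries were compared: cells kept in cell media, cells in HBSS (a buffered salt solution that served as vehicle, 0 µM HOCl), cells given HOCl at 20 µM and cells given HOCl at 100 µM. Libraries are named by group and replicate number (HBSS 1). HOCl, hypochlorous acid, is the oxidant that myeloperoxidase makes in phagocytes. Exposure lasted 1 h and RNA was taken after a further 24 h in full medium. The labels speak of sublethal and lethal doses without saying which dose is which, and they do not state whether replicates came from separate cultures, so that every p-value reflects the spread among libraries that may be technical repeats.

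Each ribosome carries a single copy of nearly every one of these proteins, and cells make them in matched amounts. Their mRNAs are short, very abundant and carry a terminal oligopyrimidine (TOP) tract at the very start, through which mTOR and the RNA-binding protein LARP1 set how much of each mRNA is translated. The working genes of mammals contain introns, and intronless processed pseudogenes of nearly all of them are scattered through the genome. Free ribosomal proteins such as RPL5 and RPL11 bind MDM2 when ribosome assembly is disturbed.

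Annotated start sites were searched for the TOP tract. RefSeq promoter windows (GRCm38.p6, 250 bases before to 50 bases after the annotated start) were at hand for 59 of the 79 genes. The windows below give 40 bases before and 20 bases from the start of 5 members with the tract and of the paralog Rps27l without it, and the capitals mark the unbroken run of C and T that begins with C at the annotated start.
Rplp2, chr7:141447611-141447670, + strand: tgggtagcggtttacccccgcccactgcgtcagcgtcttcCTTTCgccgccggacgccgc
Rps6, chr4:86857348-86857407, - strand: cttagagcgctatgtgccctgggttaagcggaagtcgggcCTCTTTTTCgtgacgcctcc
Rpl35, chr2:39005112-39005171, - strand: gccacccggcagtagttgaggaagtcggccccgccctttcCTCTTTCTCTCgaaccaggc
Rpl38, chr11:114668540-114668599, + strand: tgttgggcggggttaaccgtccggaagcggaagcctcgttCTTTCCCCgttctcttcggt
Rps10, chr17:27635225-27635284, - strand: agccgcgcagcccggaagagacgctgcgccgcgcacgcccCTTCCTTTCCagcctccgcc
Rps27l, chr9:66946046-66946105, + strand: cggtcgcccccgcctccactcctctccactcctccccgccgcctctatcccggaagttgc

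A start at C followed by at least 4 more pyrimidines was found in 14 of the 59 genes (23.7%) and in 3.01% of the 27025 genes with a window. A run of at least 8 pyrimidines within 25 bases of the start was found in 32 of the 59 (54.2%) against 22.3% of all genes. The letters CGGAAG, the core that ETS factors such as GABP recognise, stood on either strand in 40 of the 59 genes (67.8%), against 18.8% of all genes and 38.7% of the 8158 tested genes with a window. A gene with several windows was counted where any of them matched. AAGATGG, part of the YY1 motif, was found in 9 of the 59 (15.3%, against 7.28% of all genes and 9.19% of tested genes). TATAAA was found in 7 (11.9%), below the 15.7% of all genes and above the 8.11% of tested genes. A match is a match of letters only, and the first search reads from the annotated start alone. Rplp0 and Rpsa, both textbook TOP genes, had no C at that base and so no run by this rule. A run beginning with T was not scored.

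The second kind of sequence that bears on the values is the copy that repeats all or part of a member. A copy was taken as any gene of GENCODE M21 (GRCm38) elsewhere in the genome that holds at least 20% of the 50-base stretches of a member's coding sequence. Some copies therefore match only in part: Gm19810 held 20.5% of the stretches of Rps21. Other members and genes overlapping the member's own exons were not counted. A copy that matched several members was given to the member with the largest shared part. The table listed 404 copies for 71 of the members, 392 of them processed pseudogenes. The median member shared 90.3% of its coding 50-base stretches with genes elsewhere, 28 members shared all of them, and 2 shared none, Rpl3l among them. In 17 of 71 members the most abundant copy matched the coding bases, compared without gaps, at every base, and in 39 more it differed at 1 to 5 bases. The stretches below show how little sets apart 3 members from copies with higher listed values. Coding bases are counted from 1 at the A of the start codon, and the differing bases are in capitals.
Rpl23, gene at chr11:97777527-97782437, - strand, coding bases 218 to 287: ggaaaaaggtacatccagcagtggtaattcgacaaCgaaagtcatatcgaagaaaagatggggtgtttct
Gm9794, gene at chr6:66875321-66875743, - strand: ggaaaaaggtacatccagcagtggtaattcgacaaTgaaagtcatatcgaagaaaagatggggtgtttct
Rps10, gene at chr17:27630418-27636669, - strand, coding bases 386 to 480: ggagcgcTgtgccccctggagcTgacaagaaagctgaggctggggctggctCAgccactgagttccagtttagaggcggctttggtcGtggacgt
Rps10-ps2, gene at chr16:20822145-20822640, - strand: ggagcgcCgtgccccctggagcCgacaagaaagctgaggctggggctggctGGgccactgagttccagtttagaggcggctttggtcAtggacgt
Rpl3, gene at chr15:80077791-80091868, - strand, coding bases 751 to 820: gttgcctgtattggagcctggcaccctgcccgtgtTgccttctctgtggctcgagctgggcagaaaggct
Rpl3-ps1, gene at chrX:13202571-13203780, + strand: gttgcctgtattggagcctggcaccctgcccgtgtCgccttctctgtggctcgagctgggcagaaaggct

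C253T was the single substitution between Rpl23 and Gm9794 in 420 coding bases. Rps10-ps2 differed from Rps10 by T393C, T408C, C437G, A438G and G473A, and Rpl3-ps1 from Rpl3 by T786C within the stretch shown and at coding base 57. The authors counted reads with featureCounts, and the sources used here do not give how reads that fit more than 1 place were treated. The split of signal between a member and its copies is therefore uncertain.

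The members spanned a wide range of FPKM (fragments counted per kilobase of gene, scaled to the size of the library, so that levels can be compared between genes). Their means over 12 libraries had a median of 294 FPKM, against 7.32 FPKM for the 12026 genes that were tested, and 65 of the 79 stood at 100 FPKM or more. The highest was Rplp1, an acidic stalk protein that recruits translation factors, at a mean of 1985 FPKM. The next 4 were Rpl8 at 1127, Rpl32 at 1051, Rpl4 at 916 and Rps15 at 909 FPKM (over the 10 libraries without cell media 1 and 2, described next, 943, 878, 943 and 786 FPKM, so that their order differs), Rpl4 and Rpl8 being core proteins of the large subunit and Rps15 a small-subunit protein near the decoding site. Reads recovered from the FPKM values ranged from 16 to 85551 per member and library, in libraries of 17683937 to 21408518 reads.

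9 members stood below 30 FPKM, and in 6 of them the copies summed to more than the member. Rps10 was listed at a mean of 2.92 FPKM and Rps10-ps2 at 630 FPKM. Rpl30 stood at 17.7 FPKM and Gm12191 at 1004 FPKM, and Rpl24, at 1.49 FPKM, had copies summing to 22.5 FPKM. Rpl29 stood at 2.22 FPKM with 212 FPKM in its copies, and Rpl21, the only member that did not reach 1 FPKM in 3 libraries, at 0.882 with 91.6. Rpl35a had 11.9 against 107 FPKM in its copies. In all, 21 members lay below the sum of their copies, among them the well-expressed Rpl23 (349 against 1003 FPKM), Rplp0 (527 against 912), Rpl3 (266 against 440) and Rpl26 (45.0 against 1628). Of the other low members, Rpl13a (27.5 against 6.92 FPKM) stood above its copy, and Rpl3l and Rpl32l had none. Rps10, Rpl24 and Rpl13a each also shared stretches with 1 gene overlapping their own locus, which was not counted as a copy. Such a gene held 91.3% of the stretches of Rps10 and 97.5% of those of Rpl13a. The part of this overlap in the low values was not tested. FPKM divides by the length of a gene, so that a copy shorter than its member can stand higher with fewer reads. The reads of members and copies were not compared.

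**Figure D1:**
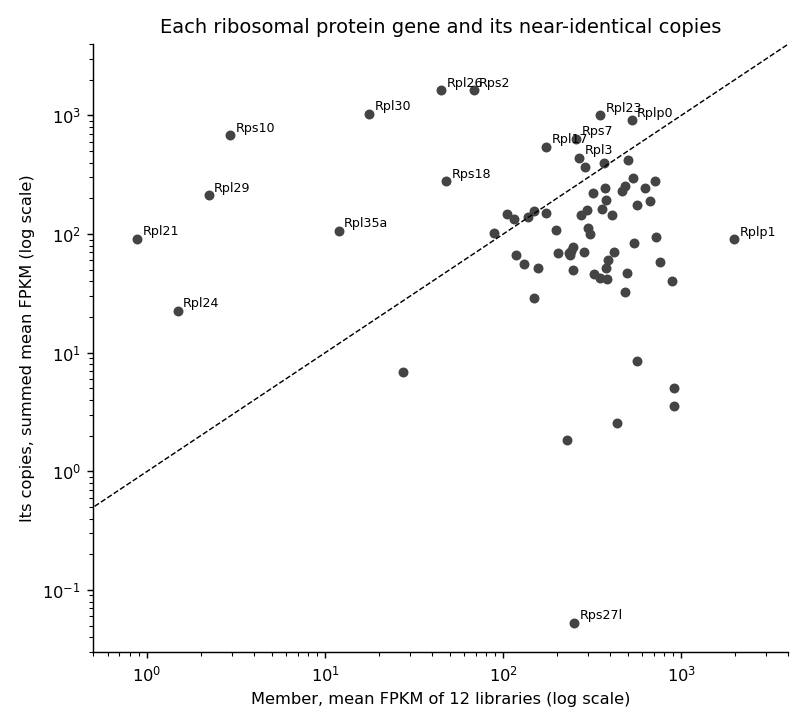
Mean FPKM of each member over 12 libraries (x axis, log scale) against the summed mean FPKM of its copies (y axis, log scale) for the 71 members with a copy in the table, with the line of equal values dashed. The 21 members above the line include Rps10, Rpl30, Rpl29, Rpl21 and Rpl24, whose own rows hold little of the summed FPKM.

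2 libraries, cell media 1 and cell media 2, stood apart from the other 10. The 79 genes made up 12.4% and 12.3% of the summed FPKM in these libraries and 7.54% in cell media 3, which lay within the 7.14% to 7.94% of the 9 HBSS and HOCl libraries. Rplp1 had 5281 and 4479 FPKM there against 1320 in cell media 3 and 1274 to 1623 FPKM over all 10 other libraries. The small-subunit protein Rps14 had 816 and 720 FPKM against 229. No value of either gene in the other 10 libraries came near those of the pair.

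The shift was not shared evenly. Taking the mean of cell media 1 and 2 over cell media 3, the 78 members that passed the filter on low values had a median ratio of 1.93, with 37 above 2, whereas the median of the 11996 tested genes that were above 0 in cell media 3 was 0.865. The ratio was 3.70 for Rplp1, 3.36 for Rps14, 3.24 for Rps27 and 3.16 for Rps21. It was below 1 in 6 members: Rpl30 (0.521), Rpl24 (0.583), Rpl4 (0.819), Rpl5 (0.954), Rpl17 (0.986) and Rpl7 (0.999). Rpl4 had 785 and 776 FPKM in the pair and 887 to 978 FPKM in each of the other 10, so that here the pair was lowest. Rps4x, at 668 and 776 FPKM against 716, showed no such shift.

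Coding length and base composition moved with the ratio. Across the 78 members, Spearman's rho of the ratio was -0.43 with coding length and 0.33 with the GC content of the transcript. With exon length it was weaker, at -0.22. These values describe genes measured in the same libraries. Among members of 10 FPKM or more the median ratio was 2.29 in the shortest 24 (75 to 390 coding bases) and 1.82 in the longest 25 (582 to 1257). Other protein-coding genes of at least 100 FPKM and under 1500 exon bases had a median ratio of 1.74 (87 genes), against 2.26 for the 21 members of that level and length, and without the length limit the medians were 1.22 (355 genes) and 2.03 (65 members). The part of length in the shift was not tested.

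**Figure D2:**
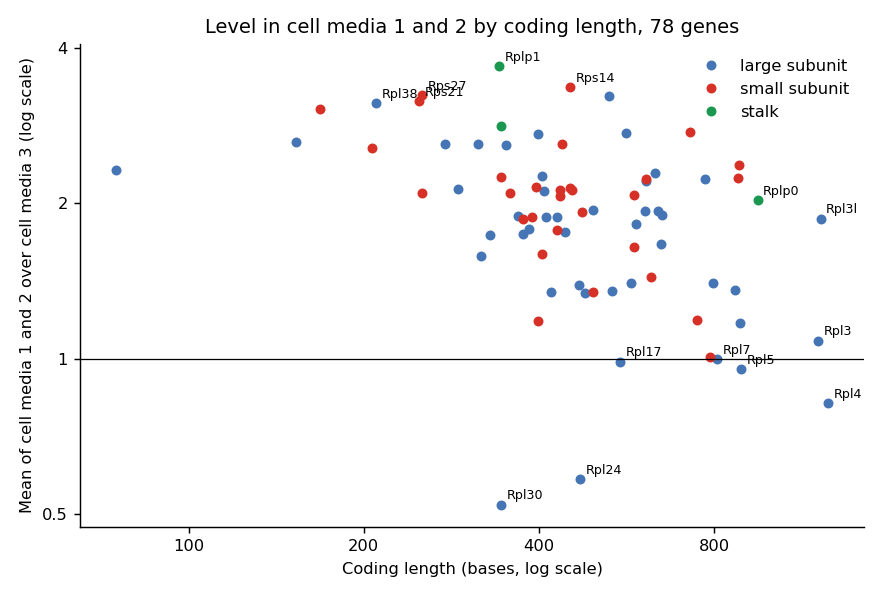
Mean FPKM of cell media 1 and 2 divided by that of cell media 3 (y axis, log scale) against coding length in bases (x axis, log scale) for the 78 tested members, coloured by subunit. 72 points lie above the line at 1, Rplp1 (3.70) is highest, and Rpl30 (0.521), Rpl24 (0.583) and Rpl4 (0.819) lie farthest below it.

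The share of the members in the summed FPKM was 10.7% ± 2.77 (SD, n = 3) in cell media, 7.41% ± 0.256 in HBSS, 7.36% ± 0.0459 at 20 µM and 7.68% ± 0.254 at 100 µM. In the 3 HBSS libraries it was 7.47%, 7.64% and 7.14%, at 20 µM 7.31%, 7.39% and 7.39%, and at 100 µM 7.43%, 7.94% and 7.68%. The HBSS and 100 µM libraries overlapped, and the 20 µM libraries all lay below the 100 µM libraries. In a two-sided exact permutation test, which with 3 against 3 libraries cannot give a p below 0.1, 100 µM against HBSS gave p = 0.3 (0.369 after Benjamini-Hochberg adjustment over 16 such tests) and 100 µM against 20 µM p = 0.1 (adjusted 0.291). A share of mRNA cannot tell more ribosomal protein mRNA from less of the rest.

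The copies were set beside the members in the same way. Their share of the summed FPKM had a mean of 4.16% ± 0.197 for the vehicle, of 4.501% ± 0.283 for 20 µM and of 4.80% ± 0.297 for 100 µM (SD, n = 3 each). The 3 libraries at 100 µM (4.55%, 4.72% and 5.13%) lay above the 3 HBSS libraries (4.15%, 4.36% and 3.96%), at the smallest p the exact permutation test allows, 0.1 (adjusted 0.291). The 3 libraries at 20 µM had 4.23%, 4.47% and 4.80%, the first within the HBSS range, with an exact permutation p against HBSS of 0.2 (adjusted 0.291). Between 100 µM and 20 µM the exact permutation p was 0.3 (adjusted 0.369). For every 100 FPKM of members the copies had 56.0 ± 0.872 FPKM with HBSS alone, 61.1 ± 3.55 with the lower and 62.5 ± 3.85 with the higher dose. The lowest HOCl library, HOCl 20 µM 1, had 57.9, above the HBSS libraries but level with cell media 3 (57.9). Cell media 1 and 2 had 50.6 and 52.0. The ratio of small-subunit to large-subunit mRNA hardly varied, at 57.0 to 59.3 FPKM per 100 FPKM over all 12 libraries, cell media 1 and 2 included.

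**Figure D3:**
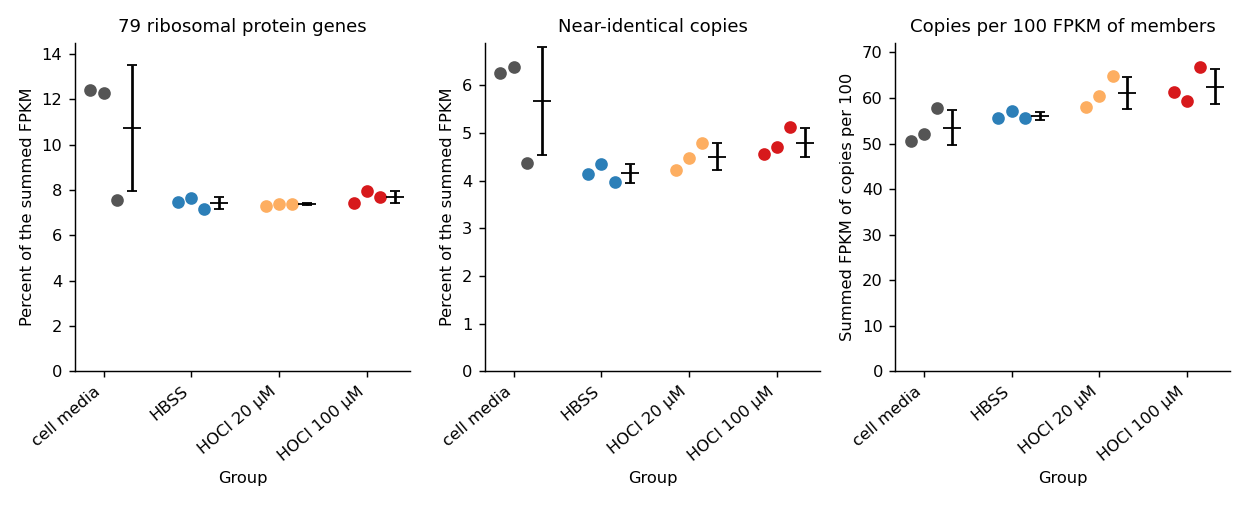
Percent of the summed FPKM in the 79 members (left) and in their copies (middle), and summed FPKM of copies per 100 FPKM of members (right), for each of 12 libraries by group, with mean and SD (n = 3) beside the points. Cell media 1 and 2 (12.4% and 12.3%) lie above the other 10 libraries (7.14% to 7.94%) in the left panel.

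**Figure D4:**
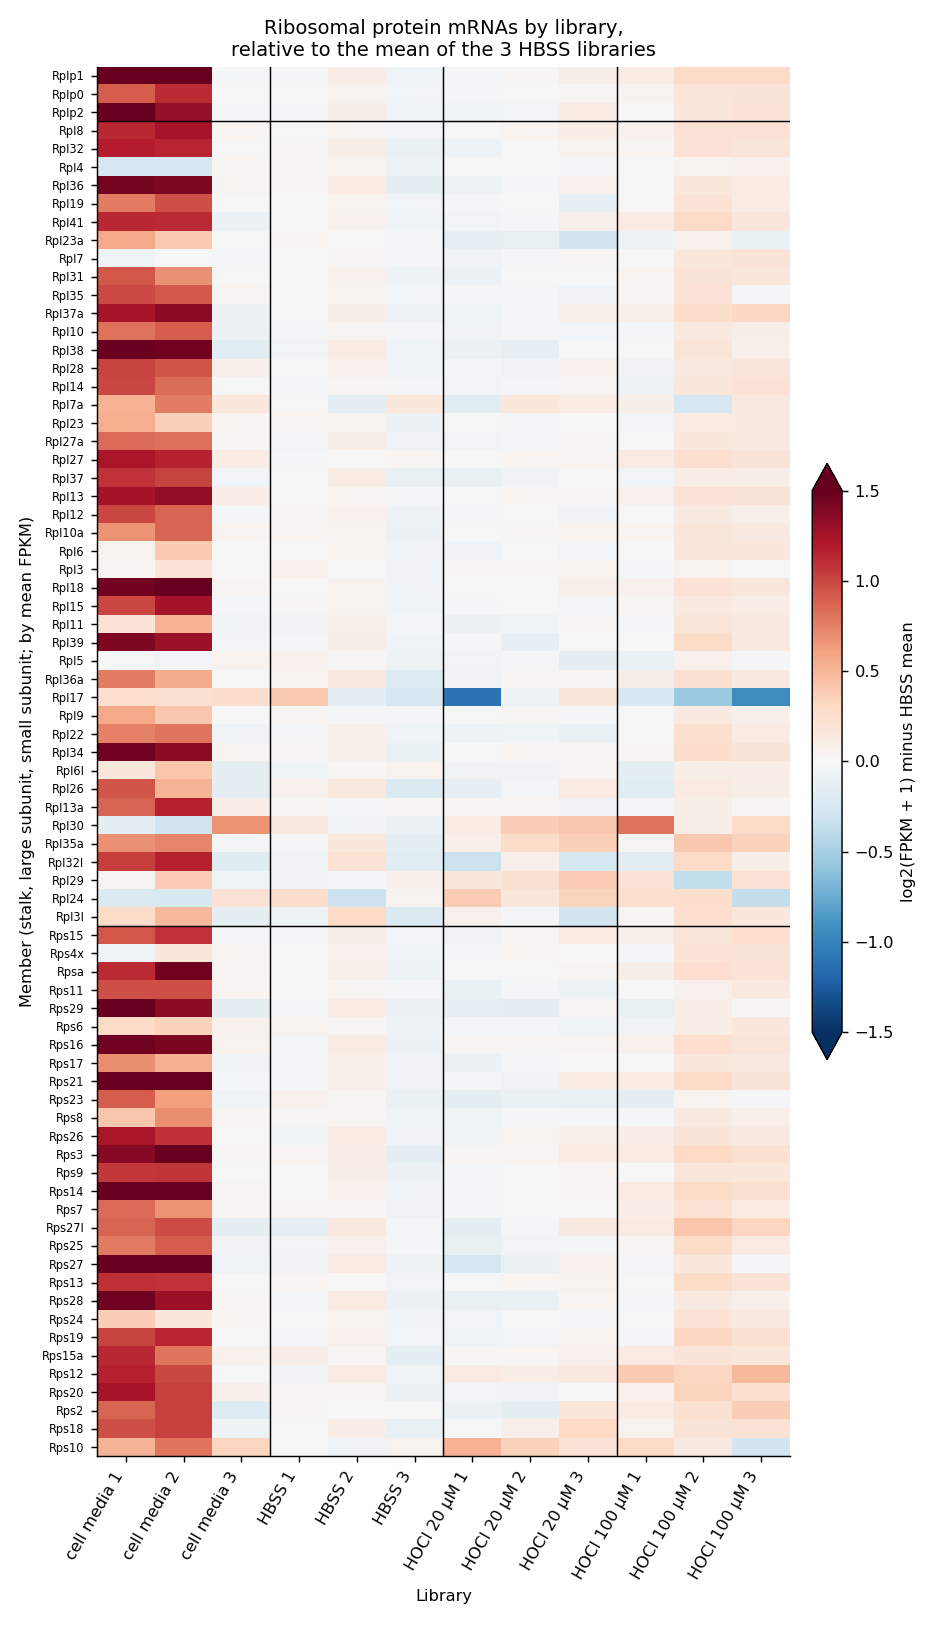
Each row is 1 of 76 of the 78 tested members and each column a library, coloured by log2(FPKM + 1) minus the mean of the 3 HBSS libraries, from blue (lower) to red (higher), with colours capped at 1.5 on either side. Cell media 1 and 2 are red in most rows, HOCl 100 µM 2 and 3 are pale red in most, and Rpl17, Rpl30 and Rps10 vary on their own.

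At 100 µM HOCl against HBSS, which addresses the effect of the higher dose over its vehicle, most members were slightly higher and none passed the test. 73 of the 78 tested members were higher and 5 lower, against 48.5% of all tested genes higher, and the median difference was 0.12 on the log2(FPKM + 1) scale (all tested genes -0.01). With limma on 12 libraries 0 members and 0 of 12026 genes (0%) had an adjusted p below 0.05, 0 members had an unadjusted p below 0.05, and limma-voom on recovered reads gave 0 and 0 as well. The median standard error of a member was 0.22, and most of that spread came from the cell media group: without cell media 1 and 2 it was 0.06. In that fit 27 members had an unadjusted p below 0.05, all higher (14.9% of all genes were higher at that p), and 1, Rps12, was called, against 29 of 12026 genes (0.241%).

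Rps12, a small-subunit protein, had 85.4, 96.4 and 85.1 FPKM in HBSS and 117, 112 and 124 FPKM at 100 µM. All libraries at 100 µM lay above all HBSS libraries. The difference was 0.40 ± 0.24 (SE) with 12 libraries, at a limma adjusted p of 0.666, and 0.40 ± 0.06 with 10, at 0.0484, the adjusted p ranging from 0.0151 to 0.968 over the alternatives. Rps12 shares all its coding 50-base stretches with a copy, Rps12-ps3 (also named after its values were seen), that had 88.3, 96.5 and 88.0 FPKM in HBSS and 112, 120 and 143 FPKM at 100 µM.

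The next highest members were Rpl30 and Rps27l. Rpl30 was higher by 0.39 ± 0.24 (16.8, 14.4 and 14.02 FPKM in HBSS against 27.0, 15.98 and 18.5 at 100 µM), with overlapping groups and with 1 library, HOCl 100 µM 1, above every other HBSS and HOCl library. Rps27l was higher by 0.29 ± 0.24 (193, 232 and 205 against 229, 280 and 262 FPKM), again with overlap. Neither passed the test (limma adjusted p of 0.669 and 0.694).

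The members of the stalk, which binds the translation GTPases, showed the common pattern. Rplp1 had 1304, 1425 and 1274 FPKM in HBSS and 1436, 1620 and 1623 FPKM at 100 µM, a difference of 0.22 ± 0.39. Rplp0 had 438, 454 and 426 against 454, 497 and 504 FPKM, a difference of 0.14 ± 0.22. Rplp2 had 170, 182 and 164 against 173, 192 and 199 FPKM, a difference of 0.13 ± 0.32. The groups did not overlap for Rplp1 and Rplp0, the lowest value of Rplp0 at 100 µM lying just above the highest in HBSS, and they overlapped for Rplp2. None passed limma's test, with adjusted p of 0.819, 0.804 and 0.871.

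The most abundant members gave similar values, below the test's threshold. Rpl8 had 900, 922 and 877 FPKM in HBSS, 897, 925 and 963 at 20 µM and 944, 1042 and 1047 at 100 µM. Rpl32 had 863, 905 and 796, then 811, 849 and 885, then 870, 988 and 971 FPKM. Rps15 had 735, 798 and 730, then 725, 768 and 817, then 793, 858 and 896 FPKM. Only Rpl8 was above all HBSS libraries in each library at 100 µM, while the lowest value of Rpl32 and of Rps15 at 100 µM fell within their HBSS range. Rpl4, by contrast, had 947, 965 and 887 FPKM in HBSS and 933, 968 and 978 at 100 µM, with full overlap.

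Groups that did not overlap were found in 16 members (20.5%), all higher at 100 µM, where 16.5% of all tested genes were higher without overlap and 17.6% lower. 9 of these were of the small subunit (Rps2, Rps3, Rps7, Rps12, Rps14, Rps15a, Rps20, Rps21 and Rpsa, the laminin receptor precursor), 5 of the large (Rpl8, Rpl13, Rpl18, Rpl27 and Rpl41) and 2 of the stalk. On the higher side the share was thus near that of all genes, and no member was lower without overlap. The higher median of the members was seen in 2 of the 3 libraries. They lay at a median of 0.19 and 0.15 above the HBSS mean in HOCl 100 µM 2 and 3, and at 0.01 in HOCl 100 µM 1. In HBSS 2 and HBSS 3 the median was 0.06 and -0.07. Under quantile normalization the direction was lost, with 35 members higher and 43 lower and a median of -0.003.

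The lowest differences were few. Rpl17, a protein at the exit of the nascent chain tunnel, had 246, 170 and 157 FPKM in HBSS and 159, 127 and 96.5 FPKM at 100 µM, a difference of -0.58 ± 0.30 (limma adjusted p 0.654), and its groups overlapped. Rps23, in the decoding centre, differed by -0.04 ± 0.19 and Rpl23a by -0.04 ± 0.13, with 95% intervals of -0.47 to 0.38 and -0.32 to 0.25 and adjusted p of 0.933 and 0.918.

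Outside cell media 1 and 2, Rpl17 varied against its own copy. In HOCl 20 µM 1, HOCl 100 µM 3 and HOCl 100 µM 2 it was lowest, at 86.4, 96.5 and 127 FPKM, and its copy Rpl17-ps10, which differs at 4 of 552 coding bases, had 444, 508 and 415 FPKM there. In HBSS 1, where Rpl17 was highest (246 FPKM), the copy had its lowest value, 153 FPKM. In cell media 1 and 2 both were high, Rpl17 at 223 and 219 FPKM and the copy at 719 and 498 FPKM. Summed with all of its copies, Rpl17 had 560, 642 and 589 FPKM in HBSS and 649, 725 and 797 at 100 µM, so that the difference turned to 0.27. Summing, a step added after the data were seen, changed the sign of 4 of the 78 tested members at 100 µM against HBSS, of 25 at 20 µM against HBSS, of 6 between the doses and of 1 between HBSS and cell media.

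The copies as a list gave larger values than the members. Many copies are near-duplicates of each other and of the members and so may share reads. Of the 267 copies tested, 246 were higher at 100 µM than in HBSS and 21 lower, with a median difference of 0.40. 151 (56.6%) were higher without overlap, against the 16.5% of all genes given above, and 2 were lower. None was called with 12 libraries, where 81 were higher and 2 lower at an unadjusted p below 0.05 (3.8% and 3.96% of all genes), and 1 was called with 10. Of the 38 copies at 100 FPKM or more, 37 were higher and 23 did not overlap. Rps16-ps2, picked after its values were seen and identical to Rps16 in its 438 coding bases, had 217, 231 and 205 FPKM in HBSS and 247, 271 and 289 FPKM at 100 µM.

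At 20 µM HOCl against HBSS the direction depended on whether copies were counted with the members. Alone, 34 were higher and 44 lower (53.9% of all genes were higher), with a median of -0.01 (all tested genes 0.01). Summed with their copies, 57 were higher and 21 lower, with a median of 0.04. Of the 267 copies tested, 231 were higher and 36 lower, with a median of 0.23, and 40 (14.98%) were higher without overlap, against 4.21% of all genes. The copies' share of the summed FPKM differed between the 20 µM libraries (4.23%, 4.47% and 4.80%), and HOCl 20 µM 1 lay within the HBSS range. With limma 0 members and 0 genes (0%) were called, and limma-voom called 0 members. At an unadjusted p below 0.05, 1 member, Rps10, was higher and 0 were lower by both (0.856% and 0.225% of all genes with limma). Without cell media 1 and 2 the call count was also 0, with 1 member higher and 1 lower at that p (2.03% and 1.06% of all genes). The 95% interval of a typical member was wide with 12 libraries (Rplp0: -0.48 to 0.50).

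The groups did not overlap in 5 members, 2 higher (2.56%, against 4.21% of all genes) and 3 lower (3.85%, against 3.48%). Rps10 had 2.26, 2.13 and 2.39 FPKM in HBSS and 3.70, 3.14 and 2.79 at 20 µM, a difference of 0.36 ± 0.16 (limma adjusted p of 1), and Rpl29 1.87, 1.92 and 2.14 against 2.34, 2.497 and 2.86 FPKM. Rps10 held 72 to 191 reads and Rpl29 26 to 63 reads per library, and both lie far below their copies. Those lower were Rpl23a (494, 482 and 477 against 445, 448 and 399 FPKM), Rps23 (419, 411 and 375 against 364, 374 and 371) and Rpl10, and Rpl23a differed by -0.17 ± 0.13. Rpl24, with 16 to 43 reads per library, had 1.81, 0.879 and 1.41 FPKM in HBSS, 2.04, 1.64 and 1.94 at 20 µM and 1.75, 1.81 and 0.829 at 100 µM, with overlap. Rpl32l had 5.502, 6.81 and 5.04, then 4.41, 6.11 and 4.62, then 5.06, 7.21 and 6.15 FPKM, again with overlap. Rpl30 (0.30 ± 0.24) and Rpl24 (0.29 ± 0.20) were the next highest, and Rpl17 (-0.34 ± 0.30) and the pseudogene Rpl32l (-0.17 ± 0.29) the others at the low end.

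HOCl 100 µM against 20 µM compares the doses directly and shares the 100 µM libraries with the comparison above. 72 members were higher and 6 lower (46.2% of all genes higher), with a median of 0.13. Under quantile normalization the direction was lost here too, with 40 higher and 38 lower and a median of 0.002, and with the exon length trend removed 64 were higher and 14 lower. With limma 0 members and 0 genes (0%) were called, as by limma-voom, and 0 members had an unadjusted p below 0.05 with 12 libraries (1.26% of all genes were higher and 2.74% lower at that p) against 32, all higher, with 10 (10.5% of all genes were higher at that p). The groups did not overlap in 28 members (35.9%), all higher, against 12.7% of all genes higher and 15.6% lower. Rps27l (191, 207 and 231 against 229, 280 and 262 FPKM, 0.29 ± 0.24), Rps12 (0.28 ± 0.24) and Rps2 (0.26 ± 0.25) had the largest values. Rps10 (-0.32 ± 0.16), Rpl24 (-0.25 ± 0.20) and Rpl17 (-0.24 ± 0.30) had the lowest. All 3 lie below the sum of their copies, as do Rps12 and Rps2 among the highest, but not Rps27l.

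HBSS against cell media, the check of the vehicle, rested on cell media 1 and 2. 75 members were lower and 3 higher in HBSS (61.2% of all genes were higher), with a median of -0.64 against 0.10 for all genes. With limma 0 members were called, of 2 genes in all (0.0166%). 63 members were lower at an unadjusted p below 0.05 (15.1% of all genes), their smallest adjusted p being 0.0711, and limma-voom called 0 with 62 at that p. Without cell media 3, the library that resembled HBSS, 68 members were called (87.2%), 67 of them lower in HBSS, in a fit that called 65.3% of all genes, 22.7% lower. Without cell media 1 and 2 the median was -0.01 and 0 were called, the single library left being assumed to vary as the other groups do. In that fit 0 members were higher and 1 lower at an unadjusted p below 0.05 (3.51% and 3.33% of all genes). The groups did not overlap in 9 members (11.5%), all lower in HBSS, against 8.91% of all genes.

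Rplp1 differed by -1.24 ± 0.39 and Rps14 by -1.20 ± 0.36, with limma adjusted p of 0.0717 and 0.0711, and these were among the largest differences. Rpl13a, known for its part in the silencing of inflammatory mRNAs in macrophages, had 43.1, 53.0 and 24.9 FPKM in cell media and 23.3, 22.6 and 23.3 in HBSS. Its cell media values all lay above HBSS, the third only just. Rpsa had 1209, 1526 and 576 FPKM against 556, 590 and 530, and Rpl41, the shortest member with 75 coding bases, 1186, 1183 and 510 against 542, 569 and 518. Rpl4 (0.16 ± 0.10), Rpl24 (0.08 ± 0.20) and Rpl7 (0.03 ± 0.08) were at the other end.

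**Figure D5:**
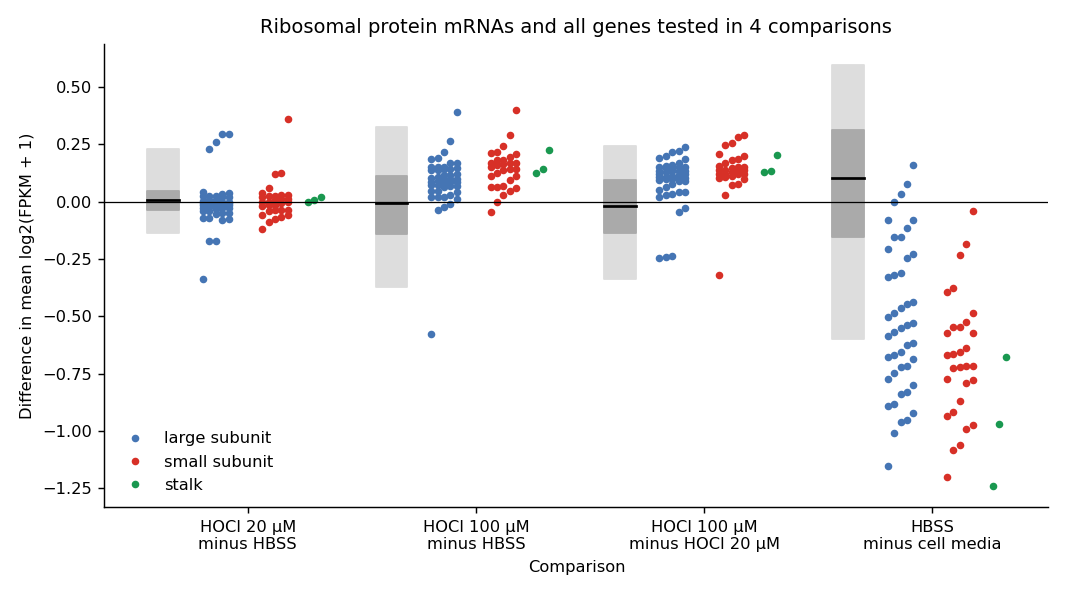
Difference in mean log2(FPKM + 1) in 4 comparisons for the 78 tested members (points, by subunit), beside all 12026 tested genes (light bar from the 5th to the 95th percentile, dark bar between the quartiles, line at the median). Members lie around 0 at 20 µM, most lie between 0 and 0.25 at 100 µM, and most lie below 0 for HBSS minus cell media, where cell media 1 and 2 stand apart.

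Away from cell media 1 and 2, most members varied little between libraries. Over those 10 libraries the median coefficient of variation was 6.73%, and 71 of 78 members were under 15%. Rpl3, which shapes the peptidyl transferase centre, was the most even, at 249 to 271 FPKM, followed by Rpl4 at 887 to 978. The least even was Rpl17 at 86.4 to 246 FPKM, and the next 5 (Rpl24, Rpl3l, Rpl30, Rps10 and Rpl29) were all below 30 FPKM. 61 of 78 members had a Pearson r above 0.7 with the mean of the other members over these 10 libraries, as a description of values that share their libraries. Rpl7a (272 to 362 FPKM, r of -0.37) was the only well-expressed member besides Rpl17 with a negative r.

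Members with special roles showed small differences. Rpl5, which with Rpl11 binds MDM2, had 210, 204 and 191 FPKM in HBSS and 187, 210 and 198 at 100 µM, a difference of -0.02 ± 0.08 with a 95% interval of -0.20 to 0.15. Rpl11 had 217, 236 and 220 against 220, 253 and 245 FPKM (0.09 ± 0.13, interval -0.19 to 0.38). Rps6, the target of S6 kinase, had 534, 521 and 488 against 496, 550 and 576 FPKM (0.07 ± 0.10, interval -0.15 to 0.29). All 3 overlapped between groups.

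The paralogs differed in level. Rps27l, a paralog of Rps27 that p53 is known to induce, had a mean of 251 FPKM over 12 libraries and Rps27 235 FPKM. Their order differed between libraries: cell media 1 and 2 had 385 and 413 FPKM of Rps27l against 591 and 500 of Rps27. Over the 10 other libraries Rps27l had 190 to 280 FPKM and Rps27 148 to 196. Summed with its copies, Rps27 had a mean of 304 FPKM. Rps27 had 170, 192 and 166 FPKM in HBSS and 171, 196 and 174 at 100 µM, so that its groups overlapped as those of Rps27l did. Rpl3l, a paralog of Rpl3 known from heart and skeletal muscle, was at 1.399 FPKM against 266 FPKM for Rpl3. It had 1.14, 1.78 and 0.948 FPKM in HBSS, 1.37, 1.23 and 0.872 at 20 µM and 1.29, 1.68 and 1.53 at 100 µM, with overlap throughout, and it shares no coding 50-base stretch with other genes. Rpl10 had 333, 345 and 332 FPKM in HBSS and 331, 373 and 357 at 100 µM. Rpl39 had 157, 169 and 152 against 159, 193 and 175 FPKM. Rps4x had 699, 731 and 665 against 688, 803 and 797 FPKM. These 3 overlapped too, and their paralogs Rpl10l, Rpl39l and Rps4l were not analysed here.

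Ribosomal proteins that the symbol rule leaves out gave similar differences. 8 of 9 were tested (among them Fau, Rack1, Rps27a, Rps3a1, Rpl7l1, Rpl22l1 and Rps27rt), of which 7 were higher at 100 µM than in HBSS with a median of 0.15, none called. Rps3a1 had 1027, 1024 and 1006 FPKM in HBSS and 1054, 1175 and 1167 at 100 µM, without overlap (0.15 ± 0.09, limma adjusted p 0.668). Rps27a, a fusion of ubiquitin and a ribosomal protein, was the most scattered, at 324, 143 and 129 against 239, 367 and 312 FPKM.

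The other TOP mRNAs, 21 genes of elongation and initiation factors, Pabpc1, Tpt1 and the like, all tested, split into 14 higher and 7 lower at 100 µM against HBSS, with a median of 0.04 and none called. 3 of 21 were higher and 3 lower without overlap, where 16.5% of all genes were higher and 17.6% lower. Eef1d, of the elongation factor that reloads eEF1A, had 31.6, 37.0 and 35.6 FPKM in HBSS and 38.0, 44.3 and 44.9 at 100 µM (0.28 ± 0.17, limma adjusted p 0.666). The importin Ipo7, which carries ribosomal proteins into the nucleus, had 39.8, 41.9 and 43.1 against 36.2, 36.6 and 35.4 FPKM (-0.20 ± 0.14, adjusted p 0.675).

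Of the 24 genes that control TOP mRNA translation or the transcription of ribosomal protein genes, 5 were higher and 19 lower at 100 µM, with a median of -0.12 and none called, and 9 were lower and 1 higher without overlap (17.6% and 16.5% of all genes). Larp1 had 63.9, 62.1 and 69.8 FPKM in HBSS and 61.1, 55.8 and 55.6 at 100 µM (-0.18 ± 0.09), with no overlap. Sp1, a promoter factor, had 22.9, 21.2 and 22.3 against 19.5, 16.6 and 16.2 FPKM (-0.33 ± 0.18). Tia1, which holds TOP mRNAs in stress granules, had 7.42, 6.19 and 6.48 against 5.45, 4.41 and 4.06 (-0.45 ± 0.28). Their limma adjusted p were 0.637, 0.665 and 0.669.

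Among the 4 genes of the MDM2 checkpoint, none was called. Mdm4, the partner of MDM2, had 60.8, 47.4 and 49.5 FPKM in HBSS, 44.2, 31.9 and 24.2 at 100 µM, and 17.0, 17.4 and 64.9 in cell media, so that cell media 1 and 2 were again apart from cell media 3. Cdkn1a, the p53 target that encodes p21, had 33.5, 35.5 and 34.4 against 39.1, 39.97 and 43.1 FPKM (0.23 ± 0.13, limma adjusted p 0.662), without overlap. Mdm2 itself differed by -0.08 ± 0.17.

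The libraries carried 9 of 10 macrophage markers at a mean of 1 FPKM or more, with summed levels of 3424 to 4458 FPKM. Epithelial, fibroblast, T cell, B cell and erythroid markers summed to at most 0.397 FPKM in any library, endothelial ones to 0.675 and neutrophil ones to 19.1 FPKM, from 1 of 4 genes. In bulk libraries fewer cells of a kind and less RNA per cell cannot be told apart.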

How the data were processed

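Gene-level FPKM values of 12 libraries were used as deposited, for 28977 gene IDs, of which 28302 matched a symbol. Per the submitters' processing notes, the authors aligned reads to GRCm39 with HISAT2 and counted them with featureCounts, and the sources used here give neither versions nor the treatment of reads fitting several places. The deposited FPKM gave whole reads (within 0.01) for 98.1% to 98.4% of values below 1 FPKM, so that reads were recovered, 17683937 to 21408518 per library. These reads are not independent molecules, and their number limits the precision of low members.

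Genes with at least 1 FPKM in at least 3 libraries (12026, 78 members) were tested on log2(FPKM + 1) with limma 3.58.1 (R 4.3.3, trend on mean level, all 12 libraries in 1 fit of 4 groups), with Benjamini-Hochberg adjustment over all genes and a threshold of 0.05. A difference on this scale understates changes of low genes. Labels gave the groups. Single shares were compared by exact permutation tests in Python 3.11.15 with scipy 1.17.1. The test was checked on simulated data. Alternatives were other scalings, filters, pseudocounts and lists of libraries, a replicate block, limma-voom and sums with copies, the last 2 chosen after seeing the data. Copies and coding bases came from GENCODE M21 (GRCm38) and promoters from RefSeq (GRCm38.p6), which is not the authors' build and was used for sequence only.

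The members, lists and tests were chosen with earlier results of these data known. Genes named with values are the stalk genes, the 5 highest and 5 lowest members, paralogs and their parents, the 3 highest and 3 lowest differences in each comparison, members called, members with special roles and up to 4 genes of each other list by smallest p at 100 µM. Some members and sequences are not reported here, and 2 members are not drawn in the plot of levels by library.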

Additional observations from a re-analysis of the deposited data

How the results depend on the processing

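Of the medians, counts and shares, 123 values under alternatives kept their direction and call, 23 moved and 3 gained calls. The median member difference at 100 µM against HBSS (0.12) was -0.0029 under quantile normalization and 0.049 with the exon length trend removed, and at 100 µM against 20 µM (0.13) it was 0.0021 and 0.053. For HBSS against cell media (-0.64) it was -0.27 under quantile normalization, -0.0063 without cell media 1 and 2, and -0.030 with copies summed on those 10 libraries. Median-of-ratios scaling moved the all-gene median of that comparison from 0.10 to 0.01. Without cell media 1 and 2, 1 member was called at 100 µM against HBSS. The cause of these shifts was not tested.

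Leaving out 1 library at a time, the medians ranged from -0.036 to 0.026 (20 µM against HBSS), 0.083 to 0.173 (100 µM against HBSS), 0.096 to 0.172 (100 µM against 20 µM) and -0.962 to -0.461 (HBSS against cell media). The calls ranged from 0 to 0 in the first 3 and from 0 to 68 in the last. The shares ranged from 9.91% to 12.3%, 7.30% to 7.55%, 7.35% to 7.39% and 7.55% to 7.81% in cell media, HBSS, 20 µM and 100 µM.

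Replicate numbers were not taken to pair the libraries: deviations of same-numbered libraries correlated at -0.417 to 0.414 over 18 pairs, and at -0.062 to 0.414 over the 9 pairs without cell media, of which 5 were above 0.1. With a replicate block 0 members were called on 12 libraries. On 10 libraries the block gave 14 (100 µM against HBSS) and 12 (100 µM against 20 µM) called members, (17.9% and 15.4%), all higher, among 2979 and 2088 genes in all (24.8% and 17.4%; 11.4% and 7.16% higher), and a median of -0.013 for HBSS against cell media.

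Summed with copies, the shares were 16.4% in cell media, 11.6% in HBSS, 11.9% at 20 µM and 12.48% at 100 µM. Members alone made up 6.55%, 3.996%, 3.97% and 4.34% of the recovered reads. Without mitochondrially encoded genes in the summed FPKM, members alone were 8.12% in HBSS, 7.97% at 20 µM and 8.33% at 100 µM. Without Rplp1 they were 6.99%, 6.93% and 7.21%. Without cell media 1 and 2 the cell media share of members alone was 7.54%.

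Signs were followed under every alternative only for the members with the 3 highest and 3 lowest differences in each comparison. In the comparisons with HOCl, some of these changed sign with copies summed, on 12 and on 10 libraries alike. They were Rpl30 (-0.011) and Rpl17 (0.065) at 20 µM against HBSS, and Rpl17 (0.27) and Rpl23a (0.054) at 100 µM against HBSS. Between 100 µM and 20 µM they were Rps10 (0.15), Rpl24 (0.16) and Rpl17 (0.21). With 1 library left out, Rpl17 ranged from -0.59 to 0.047 at 20 µM against HBSS (above 0 without HOCl 20 µM 1) and from -0.62 to 0.012 at 100 µM against 20 µM (above 0 without HOCl 20 µM 3). Rps23 ranged from -0.093 to 0.0050 at 100 µM against HBSS (above 0 without HOCl 100 µM 1). In HBSS against cell media on 10 libraries, Rpl4 was at -0.030 (-0.049 with the block, -0.031 with copies), Rpl24 at -0.22 (-0.33 and -0.18) and Rplp1 at 0.013 (0.032 and 0.0061). There Rpl24 was also at -0.062 under quantile normalization, -0.61 with copies on 12 libraries, and from -0.058 (without HBSS 1; -0.0028 without cell media 2) to 0.23 with 1 library left out, and Rpl7 at -0.087 under median-of-ratios scaling and -0.11 with the GC trend removed.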
